A study of Mus musculus with 4 samples.

Results

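The 10 genes described here carry fatty acids into the cell, store them as triglyceride and release them again. They were chosen by function, with earlier results of these data known. They comprise Cd36, Fabp4 and Fabp5 for uptake and binding, Acsl4 for activation, and Dgat1 and Dgat2 for triglyceride synthesis. Plin2 and Plin3 stand for the droplet coat, and Pnpla2 and Mgll for lipolysis. All 10 symbols were found among the 22083 genes of the deposited table. Expression was measured by RNA sequencing in group 2 innate lymphoid cells (ILC2s), tissue-resident lymphocytes that make type 2 cytokines and lack antigen receptors. ILC2s sorted from small-intestinal lamina propria (SI-ILC2s, 2 libraries) were compared with ILC2s sorted from mesenteric white adipose tissue (WAT-ILC2s, 2 libraries). All mice were wild-type C57BL/6 animals aged 9 weeks, with no treatment named in the labels. The sources used here do not state the surface markers of the sort, how many animals stand behind a library or whether animals were pooled. The p-values therefore measure the spread between these libraries only, which may be technical.

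Fatty acids reach the cytosol by diffusion or through proteins such as CD36, are carried there by fatty acid binding proteins, and are activated to acyl-CoA before any further use. Acyl-CoA that is not oxidised is esterified to triglyceride and kept in lipid droplets, whose surface is coated by perilipins. Lipases free the fatty acids again in steps, with adipose triglyceride lipase first and monoacylglycerol lipase last. In white fat this cycle serves the whole body, and in ILC2s external fatty acids and lipid droplets have been tied to proliferation and cytokine output.

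The values are RPKM, read counts scaled by the authors to gene length and sequencing depth. The size of the value steps put the depth near 55400000 to 76240000 reads per library, and column sums ranged from 136705 to 158718 RPKM. Markers of ILC2s were present in both tissues, with all 17 listed genes at a mean of at least 1 RPKM in each tissue. Each difference is the SI-ILC2 mean minus the WAT-ILC2 mean of log2(RPKM + 1), a scale on which changes at low values come out too small. A gene was called when its adjusted p was below 0.05 (limma, Benjamini-Hochberg over 8230 tested genes). The median difference of all tested genes was -0.15, and median-of-ratios scaling moved it to 0.01.

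SI-ILC2s had more mRNA for the droplet coat protein PLIN2 and the synthetase ACSL4. WAT-ILC2s had more mRNA for the fatty acid receptor CD36, the lipase ATGL (Pnpla2) and the droplet coat protein PLIN3, and for 3 genes of low level, Fabp4, Fabp5 and Mgll. Of the 10 genes, 8 were called, against 47.5% of all tested genes in either direction. Of these, 2 were called higher in SI-ILC2s, against 17.9% of all tested genes, and 6 were called higher in WAT-ILC2s, against 29.6% of all tested genes. The SI-ILC2 side held Plin2 and Acsl4, and the WAT-ILC2 side held Cd36, Fabp4, Mgll, Plin3, Pnpla2 and Fabp5. The libraries of the tissues did not overlap for these 8 genes, 2 with SI-ILC2s above (29.8% of tested genes) and 6 with WAT-ILC2s above (45.9%). Dgat1 and Dgat2 were not called and overlapped. The median difference of the 10 was -0.87. Fabp4, Fabp5 and Mgll lay under 1 RPKM in both SI-ILC2 libraries and entered the test only through their WAT-ILC2 values, so their direction was bound to be toward adipose tissue. For every gene here, fewer cells that express it and less RNA per cell cannot be told apart, nor can an effect of isolation from each tissue.

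**Figure D1:**
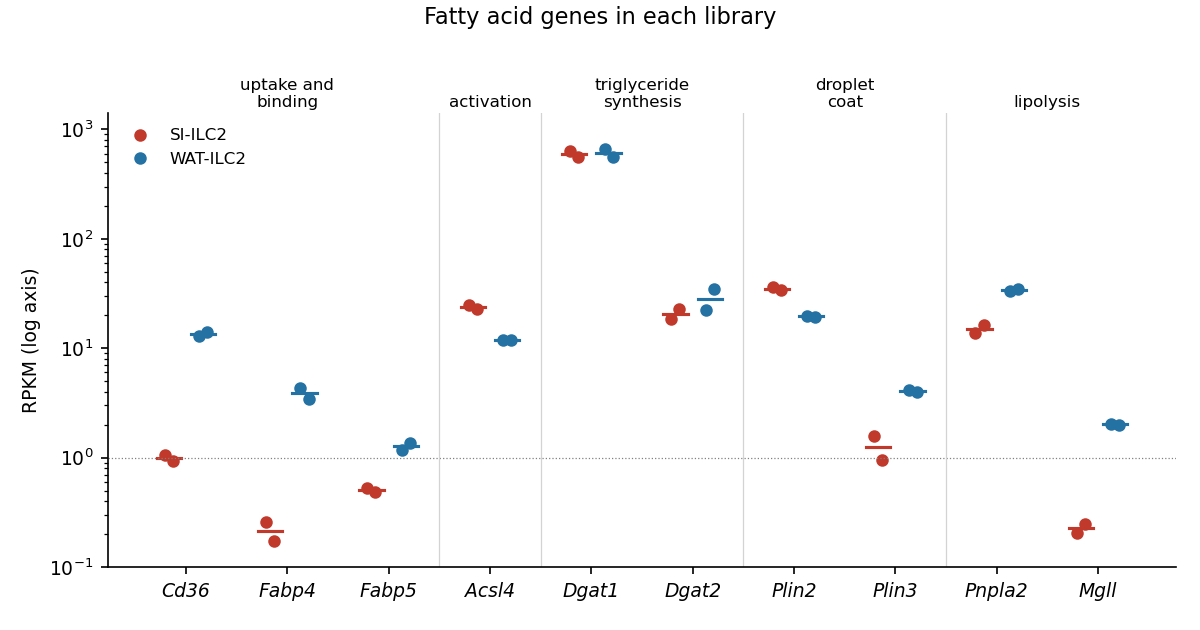
RPKM of the 10 genes in each library on a log axis, grouped by role, with SI-ILC2s in red on the left and WAT-ILC2s in blue on the right of each gene (points are libraries, short lines means of 2, the dotted line 1 RPKM). Dgat1 averages 599 RPKM in SI-ILC2s and 608 RPKM in WAT-ILC2s, while the tissue means of Cd36, Fabp4 and Mgll differ by 13.6, 18.1 and 8.88 times.

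The start regions of 4 genes are shown because they had the largest differences among the genes of each direction with a sequence at hand, Plin2 and Acsl4 toward SI-ILC2s and Cd36 and Mgll toward WAT-ILC2s. Each runs 5′ to 3′ on the gene's strand over 300 bases, from 250 before to 50 after an annotated start, and comes from RefSeq (GRCm38.p6). The windows are chr4:86670010-86670309 (minus strand) for Plin2, chrX:142390486-142390785 (minus strand) for Acsl4, chr5:17835847-17836146 (minus strand) for Cd36 and chr6:88724162-88724461 (plus strand) for Mgll. Capitals mark the letters AGGTCA, the half-site of nuclear receptors, and ACGTG, a form of the core of the hypoxia response element. Matches read on the other strand are marked too, where AGGTCA appears as TGACCT. Other forms of the hypoxia core were not searched.
Plin2: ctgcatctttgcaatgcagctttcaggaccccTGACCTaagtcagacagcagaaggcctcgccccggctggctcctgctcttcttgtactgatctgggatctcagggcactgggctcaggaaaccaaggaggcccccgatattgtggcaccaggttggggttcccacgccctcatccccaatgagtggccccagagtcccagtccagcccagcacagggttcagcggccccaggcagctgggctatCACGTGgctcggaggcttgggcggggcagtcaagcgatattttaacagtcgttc
Acsl4: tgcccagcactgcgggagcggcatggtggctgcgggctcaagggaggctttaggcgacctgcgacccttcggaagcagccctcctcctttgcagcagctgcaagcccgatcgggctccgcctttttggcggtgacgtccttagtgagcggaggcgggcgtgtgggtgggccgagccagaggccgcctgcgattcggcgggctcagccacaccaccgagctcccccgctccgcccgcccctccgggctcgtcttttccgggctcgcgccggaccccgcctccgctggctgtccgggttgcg
Cd36: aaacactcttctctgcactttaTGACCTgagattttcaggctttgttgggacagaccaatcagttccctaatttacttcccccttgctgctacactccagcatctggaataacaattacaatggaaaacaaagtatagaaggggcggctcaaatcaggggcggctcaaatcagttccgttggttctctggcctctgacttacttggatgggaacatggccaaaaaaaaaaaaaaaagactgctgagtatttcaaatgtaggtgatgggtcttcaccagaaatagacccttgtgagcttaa
Mgll: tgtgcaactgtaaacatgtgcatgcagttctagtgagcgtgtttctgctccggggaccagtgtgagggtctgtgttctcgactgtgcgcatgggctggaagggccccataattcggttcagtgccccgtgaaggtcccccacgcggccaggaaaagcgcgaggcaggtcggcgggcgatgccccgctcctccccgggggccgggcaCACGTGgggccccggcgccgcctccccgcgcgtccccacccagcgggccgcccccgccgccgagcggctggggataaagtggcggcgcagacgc
The half-site stood once in the Plin2 window, at position -218, and once in the Cd36 window, at position -228, and 16.3% of all 32851 promoter windows of this length hold it. ACGTG was present in the Plin2 and Mgll windows, in each as the palindrome CACGTG, against 19.6% of all windows. Acsl4 held neither. The GATA motif AGATAA, searched on both strands, was in none of the 7 windows of the 6 genes with an entry (Plin2, Acsl4, Cd36, Mgll, Pnpla2 and Plin3), against 11.2% of all windows. The direct repeat of AGGTCA with any 1 base between the copies, the site of PPAR with its partner RXR, was also in none, against 0.0396% of all windows. A match in letters describes the window and is not a binding site.

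Uptake was represented by Cd36, which encodes a membrane protein that binds long-chain fatty acids and modified lipoproteins (chr5:17781690-17888801, minus strand, GRCm38). It had 1.05 and 0.932 RPKM in SI-ILC2s, against 13.0 and 13.9 RPKM in WAT-ILC2s. Both adipose libraries lay far above both intestinal ones, and the WAT-ILC2 mean was 13.6 times the SI-ILC2 mean. On the log2(RPKM + 1) scale the difference was -2.86 (SE 0.14, limma, adjusted p = 1.6e-04), and only 0.243% of tested genes had a difference as low or lower. Of the printed windows, that of Cd36 is the poorest in G and C, at 43% against 60.7% to 71.7% for the other 3. The Cd36 window surrounds an annotated start inside the gene span, not the outermost start. Which start is used in ILC2s was not tested.

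Fabp4 and Fabp5 encode small cytosolic carriers of fatty acids, the first known from adipocytes, macrophages and capillary endothelium and the other from skin and many immune cells. They lie on the same chromosome, at chr3:10204088-10208576 (minus strand) and chr3:10012548-10016607 (plus strand). Fabp4 had 0.257 and 0.172 RPKM in SI-ILC2s, against 4.32 and 3.43 RPKM in WAT-ILC2s. With the exon length of its RefSeq-matched transcripts this is about 18 and 9 reads in SI-ILC2s and 214 and 201 reads in WAT-ILC2s, so the intestinal level rests on few reads. The difference was -2.00 (SE 0.14, limma, adjusted p = 3.6e-04) and the groups did not overlap. Fabp5 was the lowest of the 10 genes in WAT-ILC2s and also low in SI-ILC2s, at 0.525 and 0.482 RPKM in SI-ILC2s against 1.18 and 1.37 RPKM in WAT-ILC2s. It fell by 0.59 in SI-ILC2s (SE 0.11, limma, adjusted p = 0.0074). Of the 938 words of 50 bases in Fabp5 mRNA, 198 also occur in transcripts of 5 other genes, so its reads cannot all be assigned with certainty.

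Acsl4 encodes an acyl-CoA synthetase that prefers arachidonic acid and other polyunsaturated fatty acids and is known for its part in ferroptosis (chrX:142317993-142390535, minus strand). It had 25.05 and 22.8 RPKM in SI-ILC2s, against 11.98 and 11.96 RPKM in WAT-ILC2s, with both intestinal libraries higher. The SI-ILC2 mean was 2.00 times the WAT-ILC2 mean, and the difference was 0.94 (SE 0.14, limma, adjusted p = 0.0027). Of all tested genes, 93.2% had a difference at or below this value.

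Dgat1 and Dgat2 encode unrelated enzymes that both attach the third fatty acid to diacylglycerol, the last step of triglyceride synthesis. Dgat1 (chr15:76502015-76511953, minus strand) was by far the most abundant of the 10 genes, at 633 and 564 RPKM in SI-ILC2s, against 661 and 555 RPKM in WAT-ILC2s. It ranked 27 and 29 of 22083 genes in the SI-ILC2 libraries and 18 and 20 in the WAT-ILC2 libraries, on roughly 63501 to 91166 reads. No exon of another GENCODE gene overlaps it, and none of its words of 50 bases occurs in another gene. The tissues overlapped, and the difference of -0.02 (SE 0.20, limma, adjusted p = 0.94) had a 95% interval of -0.51 to 0.47. Dgat2 (chr7:99153658-99182719, minus strand) had 18.4 and 22.7 RPKM in SI-ILC2s, against 22.1 and 34.4 RPKM in WAT-ILC2s. One adipose library stood above the other 3, and the difference of -0.41 (SE 0.23, limma, adjusted p = 0.18) had an interval of -0.97 to 0.14. Leaving out WAT-ILC2 replicate 1 gave -0.72, and leaving out WAT-ILC2 replicate 2 gave -0.11.

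Plin2 and Plin3 encode perilipins of the kind made by most cells, the first bound to droplets at all times and the other recruited from the cytosol to young droplets. They moved in opposite directions. Plin2 (chr4:86648386-86670060, minus strand) had 35.9 and 34.3 RPKM in SI-ILC2s, against 19.8 and 19.4 RPKM in WAT-ILC2s, a difference of 0.81 (SE 0.13, limma, adjusted p = 0.0042). Its SI-ILC2 mean was 1.79 times the WAT-ILC2 mean. Plin3 (chr17:56277476-56292873, minus strand) had 1.58 and 0.947 RPKM in SI-ILC2s, against 4.16 and 4.003 RPKM in WAT-ILC2s, a difference of -1.18 (SE 0.17, limma, adjusted p = 0.0030). Neither gene overlapped between tissues. In Plin2, 90 of 1839 words of 50 bases occur in another gene, and in Plin3 45 of 3596.

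Lipolysis was represented by Pnpla2, which encodes adipose triglyceride lipase, and Mgll, which encodes monoacylglycerol lipase, an enzyme that also degrades the endocannabinoid 2-arachidonoylglycerol. Pnpla2 (chr7:141455198-141460743, plus strand) had 13.7 and 16.4 RPKM in SI-ILC2s, against 33.6 and 35.0 RPKM in WAT-ILC2s. The WAT-ILC2 mean was 2.28 times the SI-ILC2 mean, and the difference was -1.14 (SE 0.15, limma, adjusted p = 0.0020). Mgll (chr6:88724412-88828360, plus strand) had 0.206 and 0.249 RPKM in SI-ILC2s, against 2.05 and 1.99 RPKM in WAT-ILC2s. This is about 74 and 70 reads in SI-ILC2s against 537 and 618 reads in WAT-ILC2s, a difference of -1.30 (SE 0.11, limma, adjusted p = 5.7e-04), and the WAT-ILC2 mean was 8.88 times the SI-ILC2 mean. An antisense gene, Gm26588, overlaps 167 exon bases of Mgll, and no source used here states whether reads were counted by strand.

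The calls of the 8 genes held under each alternative scaling, pseudocount, filter and variance setting. They did not all hold when a WAT-ILC2 library was left out and the filter on low values was dropped as well, an alternative chosen after the data were seen. Without WAT-ILC2 replicate 1, adjusted p-values (limma) were 0.073 for Plin2, 0.064 for Acsl4, 0.078 for Plin3, 0.056 for Pnpla2 and 0.11 for Fabp5, while Cd36, Fabp4 and Mgll stayed under the threshold. Without WAT-ILC2 replicate 2 the same calls were lost, except that Pnpla2 had an adjusted p of 0.0499 (limma).

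**Figure D2:**
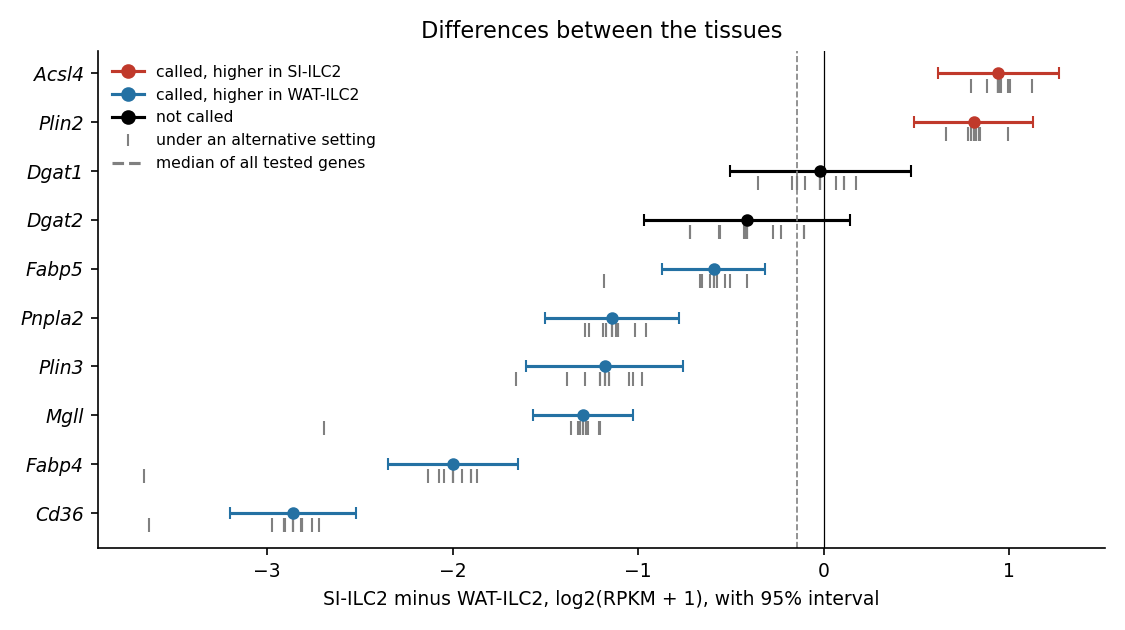
Difference between SI-ILC2s and WAT-ILC2s for each of the 10 genes on the log2(RPKM + 1) scale, with its 95% interval from limma, and grey ticks for the value under each alternative setting. Acsl4 and Plin2 lie above 0 and 6 genes lie below it, the intervals of Dgat1 and Dgat2 include 0, and the far left ticks of Cd36, Fabp4 and Mgll come from a pseudocount of 0.1.

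The order of levels differed between the tissues. In SI-ILC2s it ran Dgat1, Plin2, Acsl4, Dgat2, Pnpla2, Plin3, Cd36, Fabp5, Mgll and Fabp4, and neighbouring genes overlapped between Plin3 and Cd36 and between Mgll and Fabp4. In WAT-ILC2s it ran Dgat1, Pnpla2, Dgat2, Plin2, Cd36, Acsl4, Plin3, Fabp4, Mgll and Fabp5, and neighbours overlapped between Pnpla2 and Dgat2 and between Plin3 and Fabp4. Dgat1 made up 86.8% and 85.1% of the summed RPKM of the 10 genes in SI-ILC2s, against 85.5% and 81.6% in WAT-ILC2s. The whole sum was 697 ± 47.1 RPKM in SI-ILC2s and 727 ± 65.5 RPKM in WAT-ILC2s (SD, n = 2 each), and the tissues overlapped. Without Dgat1 the sum was 96.7 and 99.1 RPKM in SI-ILC2s and 112 and 126 RPKM in WAT-ILC2s.

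Ratios within a library do not depend on how libraries are scaled. Plin2 mRNA was 22.7 and 36.3 times as abundant per length as Plin3 mRNA in SI-ILC2s, and 4.76 and 4.85 times in WAT-ILC2s. Fabp5 exceeded Fabp4 by 2.05 and 2.80 times in SI-ILC2s, and the ratio was 0.272 and 0.399 in WAT-ILC2s, where Fabp4 was the more abundant. Pnpla2 was 66.6 and 66.0 times as abundant as Mgll in SI-ILC2s and 16.4 and 17.6 times in WAT-ILC2s. The tissues did not overlap for these 3 ratios, each with an exact permutation p of 0.333 (two-sided, adjusted p = 0.444 over 4 ratios), the smallest that 2 libraries against 2 allow. With 1 RPKM added to both genes, the log2 ratio difference between the tissues was 1.40 in place of 2.86 for Fabp5 over Fabp4 and 0.16 in place of 1.96 for Pnpla2 over Mgll, so the size of these ratios depends on values below 1 RPKM. Dgat1 was 34.3 and 24.8 times as abundant as Dgat2 in SI-ILC2s and 29.9 and 16.1 times in WAT-ILC2s, and these overlapped (exact permutation p = 0.667).

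**Figure D3:**
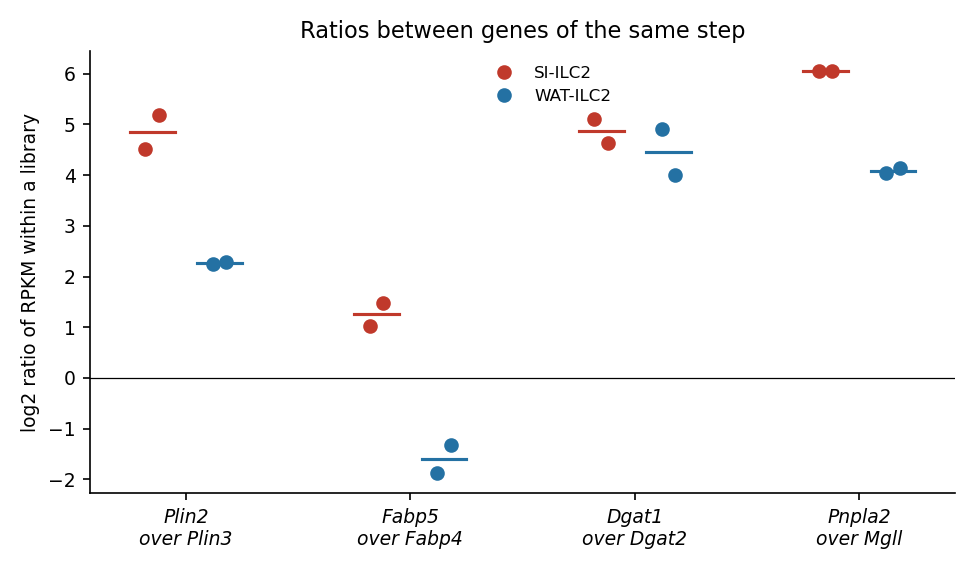
Log2 ratio of RPKM between 2 genes of the same step within each library, with SI-ILC2s in red on the left and WAT-ILC2s in blue on the right (points are libraries, short lines means of 2). The Plin2, Fabp5 and Pnpla2 ratios lie higher in SI-ILC2s, and only the Fabp5 ratio crosses 0.

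A further 113 genes of the pathway, listed by role, were all found in the table, and 56 of them passed the filter. Of these, 8 (14.3%) were called higher in SI-ILC2s, against 17.9% of all tested genes, and 25 (44.6%) were called higher in WAT-ILC2s, against 29.6%. Of the 8, 4 (Gpat3, Soat2, Scd2 and Aqp3) were under 1 RPKM in both WAT-ILC2 libraries, and of the 25, 7 (Slc27a6, Lpin1, Abhd6, Ddhd2, Aqp7, Daglb and Pnpla6) were under 1 RPKM in both SI-ILC2 libraries. These 11 passed the filter only through the tissue where they were high, which fixed their direction, so the counts describe the list and support nothing further. The median difference of the 56 was -0.40, against -0.15 for all tested genes. The counts ran from 7 to 10 toward SI-ILC2s and from 19 to 31 toward WAT-ILC2s under 3 other scalings, and without SI-ILC2 replicate 1 they were 3 and 14. Without WAT-ILC2 replicate 2 they were 8 and 16, and without SI-ILC2 replicate 2 they were 3 and 19. Without a WAT-ILC2 library and with no filter they were 4 and 3 (replicate 1 left out) or 4 and 8 (replicate 2 left out). The calls of Hilpda, Soat2, Soat1, Prkacb, Abhd6, Scarb1, Cav1, Acsl5 and Acbd3 were lost under both of these settings, and those of Slc27a6, Lpin1, Ldah and Ddhd2 were lost without replicate 1.

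Among 16 tested genes of uptake and activation, 1 (6.25%) was higher in SI-ILC2s, against 17.9% of all tested genes, and 6 (37.5%) were higher in WAT-ILC2s, against 29.6%. Without SI-ILC2 replicate 1 the counts were 0 and 3. The acyl-CoA synthetase gene Acsbg1 had 1.42 and 1.45 RPKM in SI-ILC2s, against 4.53 and 4.40 RPKM in WAT-ILC2s. The fatty acid transport protein gene Slc27a6 had 0.487 and 0.553 RPKM in SI-ILC2s against 2.19 and 1.53 RPKM in WAT-ILC2s, and Scarb1, which encodes a lipoprotein receptor, had 0.550 and 1.15 RPKM in SI-ILC2s against 1.98 and 3.92 RPKM in WAT-ILC2s. All 3 lay higher in both WAT-ILC2 libraries, and the call of Scarb1 was lost without SI-ILC2 replicate 1. Cav1, the gene of caveolin-1, had 0.772 and 4.33 RPKM in SI-ILC2s against 6.51 and 8.03 RPKM in WAT-ILC2s, and its call (limma, adjusted p = 0.046) was also lost without SI-ILC2 replicate 1. Acsl5, the most abundant of the list, had 13.95 and 12.5 RPKM in SI-ILC2s and 20.5 and 16.8 RPKM in WAT-ILC2s, and the acyl-CoA binding protein gene Acbd3 had 3.77 and 4.91 RPKM in SI-ILC2s against 2.38 and 3.02 RPKM in WAT-ILC2s. Adjusted p-values of these 2 (limma) were 0.0496 and 0.048, and both calls were lost without either SI-ILC2 library. Median-of-ratios scaling and quantile normalization ended the calls of Acsl5 and Cav1, and rescaling to equal sums ended that of Acbd3. The 7 other listed fatty acid binding protein genes (Fabp1, Fabp2, Fabp3, Fabp6, Fabp7, Fabp9 and Fabp12) stayed under the filter, and lipoprotein lipase, encoded by Lpl, had 0.0508 and 0.0968 RPKM in SI-ILC2s and 0.228 and 0.482 RPKM in WAT-ILC2s.

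Genes of synthesis and storage were called in both directions, with 5 of 22 (22.7%) higher in SI-ILC2s, against 17.9% of all tested genes, and 8 (36.4%) higher in WAT-ILC2s, against 29.6%, shares near those of all genes. Without SI-ILC2 replicate 1 or 2 the counts were 2 and 5. Hilpda, which encodes a hypoxia-induced droplet protein that inhibits adipose triglyceride lipase, was the most abundant of the list, at 206 and 169 RPKM in SI-ILC2s against 95.4 and 70.5 RPKM in WAT-ILC2s (difference 1.18, limma, adjusted p = 0.0053). Pcyt1a, the rate-limiting enzyme of phosphatidylcholine synthesis, had 32.4 and 34.9 RPKM in SI-ILC2s against 6.12 and 6.59 RPKM in WAT-ILC2s. Gpat3, an acyltransferase of the first step of glycerolipid synthesis listed under its older symbol Agpat9, had 3.15 and 3.09 RPKM in SI-ILC2s against 0.479 and 0.538 RPKM in WAT-ILC2s. Both stood clear of the adipose libraries, as did Soat2, a cholesterol acyltransferase gene, at 1.76 and 1.37 RPKM in SI-ILC2s against 0.265 and 0.360 RPKM in WAT-ILC2s. Its relative Soat1 ran the other way, at 28.6 and 29.0 RPKM in SI-ILC2s against 44.3 and 50.2 RPKM in WAT-ILC2s, a call lost without either SI-ILC2 library. Lpcat2, which remodels phospholipids and makes platelet-activating factor, had the largest difference of the list at 7.25 and 7.91 RPKM in SI-ILC2s against 84.0 and 95.4 RPKM in WAT-ILC2s. Higher in WAT-ILC2s were also the phosphatidate phosphatase gene Lpin1 (0.576 and 0.682 RPKM in SI-ILC2s, 2.64 and 2.22 RPKM in WAT-ILC2s) and the droplet hydrolase gene Ldah (3.11 and 3.18 RPKM in SI-ILC2s, 7.97 and 6.57 RPKM in WAT-ILC2s). The perilipin genes of fat, muscle and heart (Plin1, Plin4 and Plin5) and the droplet fusion genes Cidea and Cidec stayed under the filter, as did G0s2, which encodes another inhibitor of adipose triglyceride lipase.

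Of 18 tested lipolysis genes, 2 (11.1%) were higher in SI-ILC2s, against 17.9% of all tested genes, and 11 (61.1%) were higher in WAT-ILC2s, against 29.6%. Of the 11, 5 (Abhd6, Ddhd2, Aqp7, Pnpla6 and Daglb) passed the filter only through WAT-ILC2s, which fixed their direction. The WAT-ILC2 count was 6 of 17 without SI-ILC2 replicate 1, 6 of 12 without WAT-ILC2 replicate 1 and 5 of 12 without WAT-ILC2 replicate 2. With a WAT-ILC2 library left out and no filter, it was 1 of 30 (without replicate 1) or 2 of 30 (without replicate 2). Aqp7, a glycerol channel gene, was at 0.224 and 0.0976 RPKM in SI-ILC2s against 1.78 and 2.24 RPKM in WAT-ILC2s. Prkacb, a catalytic subunit of protein kinase A, had 10.2 and 13.8 RPKM in SI-ILC2s against 27.9 and 30.0 RPKM in WAT-ILC2s. The lipase genes Ddhd2 (0.540 and 0.460 RPKM in SI-ILC2s against 2.28 and 1.86 RPKM in WAT-ILC2s) and Abhd6 (0.748 and 0.537 RPKM in SI-ILC2s against 2.02 and 2.23 RPKM in WAT-ILC2s) were also higher in both WAT-ILC2 libraries, and like Aqp7 they passed the filter only through these. Higher in SI-ILC2s was Aqp3, a channel for water and glycerol, at 3.45 and 2.54 RPKM in SI-ILC2s against 0.170 and 0.186 RPKM in WAT-ILC2s. Faah, which encodes a hydrolase of fatty acid amides, was the most abundant of the list, with 47.9 and 55.0 RPKM in SI-ILC2s, 38.6 and 41.5 RPKM in WAT-ILC2s and an adjusted p of 0.092 (limma). Lipe, the gene of hormone-sensitive lipase, stayed under the filter at 0.397 and 0.455 RPKM in SI-ILC2s, against 0.364 and 0.504 RPKM in WAT-ILC2s.

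**Figure D4:**
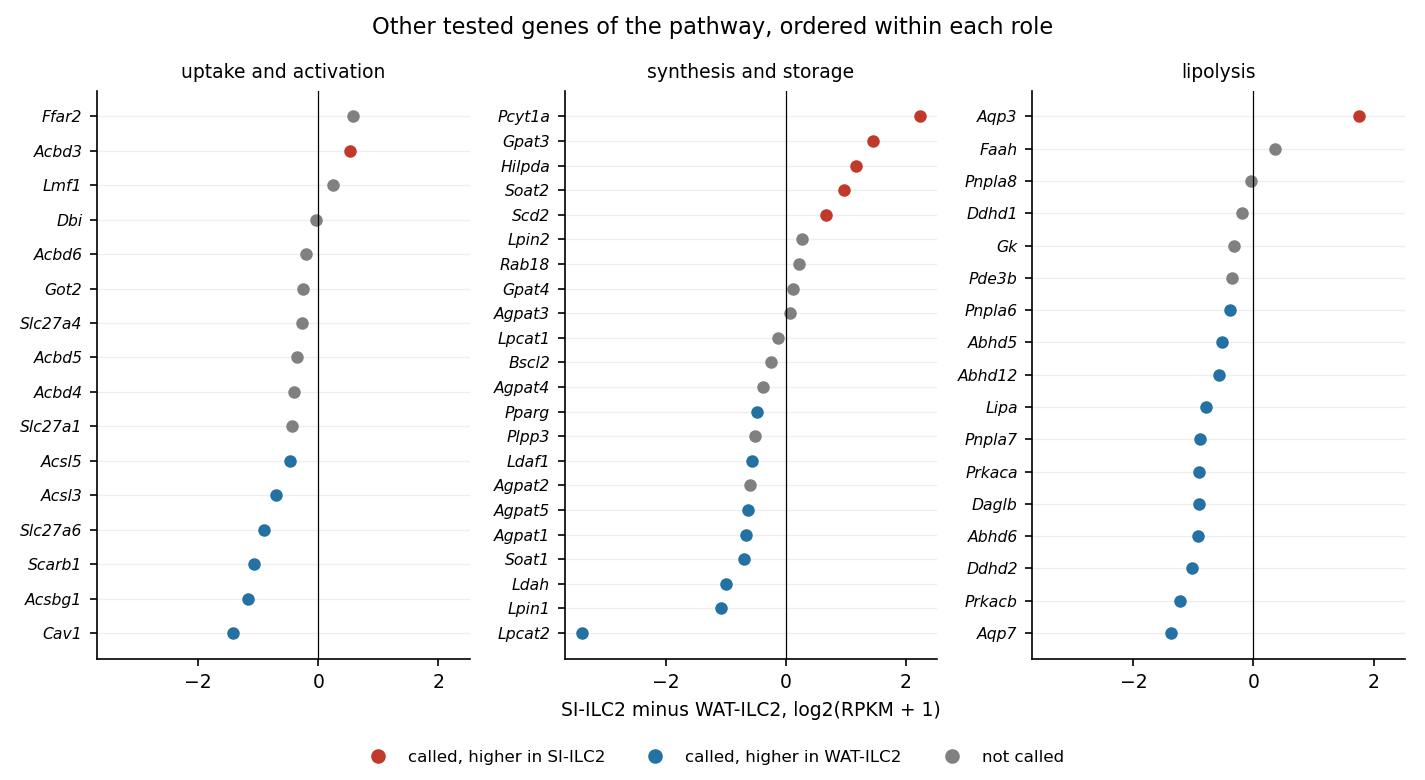
Differences between SI-ILC2s and WAT-ILC2s on the log2(RPKM + 1) scale for the other tested genes of the pathway that are reported here, in 3 panels by role and ordered by size (red called higher in SI-ILC2s, blue called higher in WAT-ILC2s, grey not called). The lipolysis panel holds 11 blue genes, 5 of which passed the filter only through WAT-ILC2s.

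Cd36 and Fabp4 are abundant in adipocytes, capillary endothelium and some macrophages, so markers of these cells are given beside them. Of 15 adipocyte markers, 14 were under 1 RPKM in every library, and Adipoq, the adiponectin gene, had 0.121 and 0.0633 RPKM in SI-ILC2s and 0.0139 and 0.106 RPKM in WAT-ILC2s. The gene above 1 RPKM was Aqp7, and none of the 15 was at 0 in all libraries. The summed level of the list was 1.56 and 1.05 RPKM in SI-ILC2s against 3.89 and 5.13 RPKM in WAT-ILC2s. In WAT-ILC2s this sum was below the level of Cd36 alone, and in SI-ILC2s it was above it. The same held for the macrophage and dendritic cell list, whereas the endothelial sum was above Cd36 in every library. Such sums do not show how much Cd36 mRNA these cells hold, which was not tested. Of 15 endothelial markers, 8 were under 1 RPKM in every library, and the list summed to 8.15 and 13.3 RPKM in SI-ILC2s against 16.97 and 32.3 RPKM in WAT-ILC2s. Its most abundant genes were Plvap (2.01 and 2.44 RPKM in SI-ILC2s against 5.17 and 16.2 RPKM in WAT-ILC2s) and Pecam1 (3.88 and 4.49 RPKM in SI-ILC2s against 2.04 and 2.97 RPKM in WAT-ILC2s). The endothelial sum was higher in WAT-ILC2 replicate 2 than in replicate 1, with the largest rise in Plvap.

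Macrophage and dendritic cell markers were under 1 RPKM in every library for 12 of 15 genes and summed to 5.73 and 4.09 RPKM in SI-ILC2s against 8.59 and 11.9 RPKM in WAT-ILC2s. Lyz2, the lysozyme gene of myeloid cells, had 0.633 and 0.331 RPKM in SI-ILC2s against 3.53 and 5.502 RPKM in WAT-ILC2s, and Cd68 had 2.33 and 0.784 RPKM in SI-ILC2s against 1.94 and 1.12 RPKM in WAT-ILC2s. Red cell markers summed to 41.6 and 13.2 RPKM in SI-ILC2s against 140 and 88.9 RPKM in WAT-ILC2s, led by the globin genes Hba-a1 and Hba-a2. Fibroblast and mesothelial markers summed to 1.80 and 2.36 RPKM in SI-ILC2s against 13.5 and 6.03 RPKM in WAT-ILC2s, with Dcn and Col3a1 the most abundant. The part of these cells in the differences of Cd36, Fabp4 and Cav1 was not tested. Epithelial markers summed to 6.32 and 11.6 RPKM in SI-ILC2s and 9.34 and 9.20 RPKM in WAT-ILC2s, with 13 of 15 genes under 1 RPKM in every library. The other 2 were Epcam (4.68 and 6.04 RPKM in SI-ILC2s, 8.28 and 7.85 RPKM in WAT-ILC2s) and the keratin gene Krt8. Krt8 had 0.240 and 4.32 RPKM in SI-ILC2s and 0.369 and 0.194 RPKM in WAT-ILC2s. B and plasma cell markers, led by Cd79b and Jchain (listed as Igj), summed to 24.96 and 19.0 RPKM in SI-ILC2s and 3.18 and 2.78 RPKM in WAT-ILC2s. The other 6 of the 8 genes were under 1 RPKM in every library. The part of these cells in the levels of Plin2 and Acsl4 was not tested. NK cell, ILC1 and ILC3 markers summed to 31.0 and 27.5 RPKM in SI-ILC2s against 7.07 and 5.29 RPKM in WAT-ILC2s. Most of this was Klrb1b, at 28.1 and 24.6 RPKM in SI-ILC2s against 6.21 and 4.09 RPKM in WAT-ILC2s. Of the 9 genes, 7 were under 1 RPKM in every library. T cell markers summed to 9.62 and 8.45 RPKM in SI-ILC2s against 23.8 and 13.0 RPKM in WAT-ILC2s. Most of this was Cd3g, at 7.07 and 4.94 RPKM in SI-ILC2s against 21.2 and 10.8 RPKM in WAT-ILC2s. Of the 8 genes, 5 were under 1 RPKM in every library. Granulocyte and mast cell markers summed to 0.629 and 0.742 RPKM in SI-ILC2s against 2.25 and 1.95 RPKM in WAT-ILC2s.

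**Figure D5:**
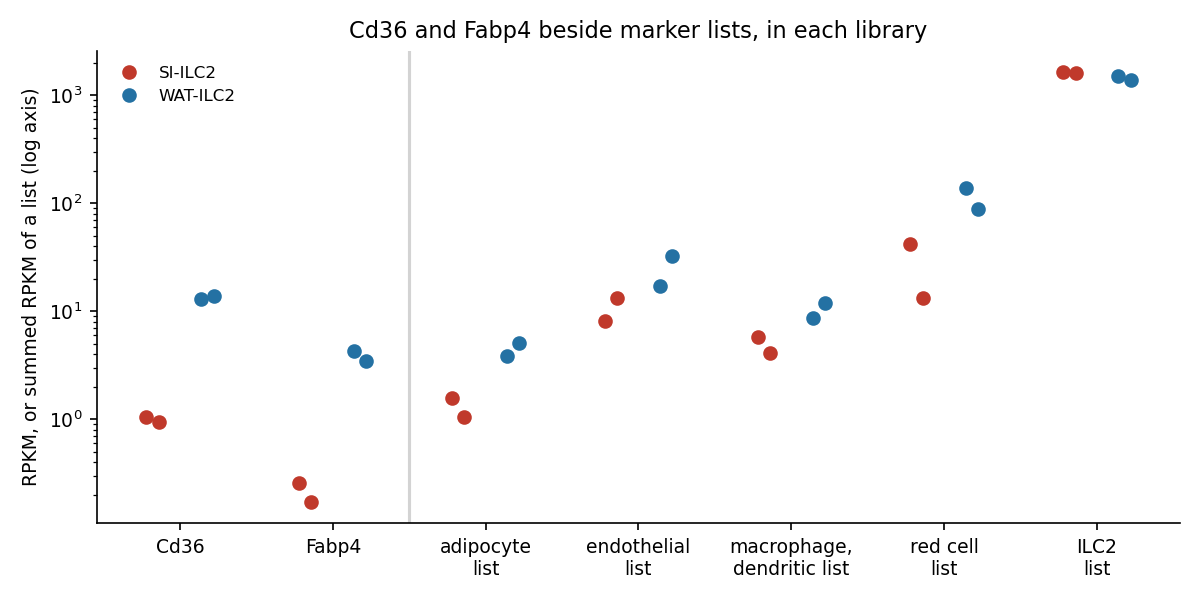
RPKM of Cd36 and Fabp4 beside the summed RPKM of marker lists in each library on a log axis, with SI-ILC2s in red on the left and WAT-ILC2s in blue on the right. Adipocyte, endothelial, macrophage and red cell sums are higher in the WAT-ILC2 libraries, while the ILC2 list lies between 1375 and 1636 RPKM in all 4. That sum hides differences of single ILC2 genes in both directions. Il17rb averages 152 RPKM in SI-ILC2s and 12.3 RPKM in WAT-ILC2s, and Il1rl1 averages 14.8 and 64.5 RPKM.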

How the data were processed

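RNA of ILC2s sorted from 2 mouse tissues was sequenced, with 2 libraries per tissue. Per the submitters' processing notes, STAR 2.6.0, featureCounts 1.6.0 of Subread and the build GRCm38 (mm10) were used. The authors deposited RPKM values, 1 column for each library. The sources used here do not state the annotation, the strand setting or the handling of multi-mapped reads. Groups and replicate numbers came from the sample titles. No tested gene had the same value in both libraries of a tissue.

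Genes with at least 1 RPKM in at least 2 libraries were kept (8230). Values were taken as log2(RPKM + 1) and fitted with limma 3.58.1 in R 4.3.3 (variance trend, no covariate), and p-values were adjusted over all tested genes. A count model was not applied, since RPKM are scaled values. Approximate reads are RPKM times the exon length of RefSeq-matched transcripts in GENCODE M21 times the depth. The depth was set where 86.1% to 87.9% of low values of single-exon genes fell within 0.1 of whole reads. Of these whole values, 65.8% to 73.4% were even, so the read numbers given may stand for fewer independent fragments, which was not tested. A change of depth alters precision, which is lowest for genes under 1 RPKM. Older symbols in the table were matched to current ones.

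The 10 genes, the pathway list and the marker lists were chosen with earlier results of these data known. The text names all 10 genes, per role up to 4 called genes per direction with no overlap between tissues and the most abundant gene, and the leading markers. Scd2, Daglb, Pnpla6, Lpl, Lipe, G0s2, Adipoq, the perilipins, and the Cide and Fabp genes under the filter fall outside this rule and were added after their values were seen. A called lipolysis gene is counted but not reported here. Alternatives covered the pseudocount, the filter, 3 scalings, the variance trend, a replicate block and each library left out.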

Additional observations from a re-analysis of the deposited data

How the results depend on the processing

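Cd36 kept its direction and call under every alternative. Fabp4 and Mgll kept theirs under every alternative that gave a value, although the filter, where applied, fixed their direction and that of Fabp5. Plin2, Acsl4, Plin3, Pnpla2 and Fabp5 kept theirs except without a WAT-ILC2 library and with no filter (Pnpla2 only without replicate 1), where 336 and 520 genes (without replicate 1) or 439 and 666 genes (without replicate 2) were called in the whole table, against 1470 and 2436. Leaving out a WAT-ILC2 library under the filter drops Fabp4, Fabp5 and Mgll, which then have a single library at 1 RPKM or more. Where a tissue had 1 library left, it was assumed to vary like the other tissue. Without a WAT-ILC2 library and under the filter, adjusted p-values of the called genes still tested came out smaller than in the main fit. Calls kept there carry little weight. Over the left-out libraries, the genes higher in SI-ILC2s ran from 0 to 2 of the 10 and those higher in WAT-ILC2s from 3 to 6, and the other pathway genes from 3 to 8 and from 14 to 20, or 4 toward SI-ILC2s and 3 or 8 toward WAT-ILC2s without a WAT-ILC2 library and with no filter. Dgat1 changed sign, with 0.17 after median-of-ratios scaling, 0.06 without SI-ILC2 replicate 2 and 0.11 without WAT-ILC2 replicate 1 (with or without the filter), none called, and -0.15 as the lowest value without a library. The Dgat1 over Dgat2 ratio difference ran from -0.033 to 0.86 when a library was left out, and the causes were not tested.

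Replicate numbers are shared by the tissues but not stated to pair the libraries, and deviations of the same-numbered libraries correlated at 0.572 across genes. With the number as a replicate block the counts of the 10 genes were 2 and 7, with Dgat2 added at an adjusted p of 2.0e-04 (limma), and those of the other pathway genes 10 and 34. Adjusted p-values of this fit (limma) were far smaller than in the main fit, at 5.1e-23 against 1.6e-04 for Cd36. Its calls, that of Dgat2 included, therefore carry little weight. SI-ILC2s held 37.6% of all calls, against 52.6%, 48.4% and 27.6% after median-of-ratios scaling, quantile normalization and rescaling to equal sums. Depth limits Fabp4 most, with about 9 reads in a library.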
